A study of Homo sapiens with 9 samples.

Results

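The 42 genes described here serve protein folding in the endoplasmic reticulum (ER) and the cell's response to ER stress. They were taken by name from the 78894 gene identifiers of the data, and every one was matched to a single identifier. Of these 42 genes, 41 passed the filter on low values together with 17100 genes in all. DERL3, a homologue of the degradation factors DERL1 and DERL2, is listed at 0 in every library and was not tested.

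RNA was measured in CAL27, an established tongue carcinoma line of squamous type, in a series on an enhancer of head and neck squamous cell carcinoma. The cells were CRISPR-edited according to the series' design, and the groups are Control with 3 samples and the knockouts A2ko, A8ko and C9ko with 2 samples each. All groups share the cell line, DMEM medium with serum, no added treatment, and strand-marking (dUTP) libraries of polyadenylated RNA made from 2 ug of total RNA. The labels name neither the edited sequence nor the editing of Control, and they leave unsaid if a group is clonal or pooled and if its samples are separate cultures.

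The values are in TPM, each gene's share of the transcripts in a library (per 1000000) after scaling by gene length, so the sequencing depth is unknown. The A2ko samples hold identical values under the same header, A2B, and so do the A8ko samples under A8B. Each pair was counted as 1 library, which leaves 7 distinct libraries. A2ko and A8ko therefore have no replicates and no test, and any p-value for C9ko measures the spread between 3 Control and 2 C9ko libraries, which may be technical. Keratinocyte markers summed to 16159 to 17353 TPM in Control, 7578 in A2ko, 7047 in A8ko and 9242 to 9510 in C9ko, all 10 of them detected in every library. Most of that sum came from KRT5, KRT14 and KRT15, at -0.74, -1.61 and -2.17 log2 units in C9ko, while CDH1 and LAMB3 were at 0.74 and 0.93. The median of the 10 was 0.07 and 0.04 in the C9ko libraries, -0.26 in A2ko and -0.58 in A8ko, against -0.04 to 0.06 in Control. The defining markers COL3A1 (fibroblast) and KDR (endothelium) are listed at 0 throughout and PTPRC (leukocyte) reached at most 0.0232 TPM. The endothelial list nevertheless summed to 3.63 to 4.66 TPM in Control and to 22.3 and 30.3 in C9ko, most of it from CDH5. The leukocyte list, of which only CD68 and CD14 were tested, summed to 42.6 to 50.7 TPM in Control, with A2ko at 61.1, A8ko at 83.5 and C9ko at 65.8 to 67.3. CD14 was at 14.2 to 17.9 TPM among the Control libraries and at 52.5 and 50.8 in C9ko, and CD68 was at 27.8 to 32.2 TPM in Control, with A8ko at 66.3 and C9ko at 14.1 and 14.3. The fibroblast list summed to 10.8 to 12.3 TPM across Control, 17.7 in A2ko, where COL1A1 was at 13.4 TPM against 5.82 to 6.81, then 7.43 in A8ko and 11.1 to 11.9 in C9ko. The part of any of these markers in the results below was not tested.

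Proteins that enter the ER are folded by chaperones, stabilised by disulfide bonds and, when they fail to fold, sent back to the cytosol for degradation. Unfolded protein is sensed by IRE1 (gene ERN1), ATF6 and PERK (gene EIF2AK3), which together drive the unfolded protein response. IRE1 splices the mRNA of XBP1, ATF6 is cut to release a transcription factor, and both raise chaperone genes. PERK slows translation and favours synthesis of ATF4, whose targets make amino acids and include CHOP (gene DDIT3). ATF4 is also induced by kinases that sense amino acid lack and other stresses, so its targets are not specific to the ER. Secretory and squamous epithelial cells carry a high load of membrane and secreted protein, and the pathway is widely studied in carcinomas.

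Many chaperone genes of this response carry ER stress elements in their promoters, and those found by letter match are shown because their genes make up much of the folding group below. Promoter windows of 250 bases before to 50 bases after the start came from RefSeq (GRCh38.p14), and 38 of the 42 genes had one. The ER stress element was searched on both strands as CCAAT, any 9 bases and CCACG, and 7 genes held it, against 0.0916% of all 27305 genes with a window. Capitals mark the fixed letters of the element, and each sequence is on the gene's own strand, so an element on the other strand reads as CGTGG before ATTGG.
HSPA5, minus strand, chr9:125241379-125241421: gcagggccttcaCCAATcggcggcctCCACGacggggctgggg
HSP90B1, plus strand, chr12:103930204-103930246: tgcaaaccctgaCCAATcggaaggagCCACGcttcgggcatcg
CALR, plus strand, chr19:12938372-12938414: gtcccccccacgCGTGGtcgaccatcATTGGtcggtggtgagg
CANX, plus strand, chr5:179698766-179698808: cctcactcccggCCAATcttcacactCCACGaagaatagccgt
CRELD2, plus strand, chr22:49918542-49918584: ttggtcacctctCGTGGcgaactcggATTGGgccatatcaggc
PDIA6, minus strand, chr2:10812841-10812883: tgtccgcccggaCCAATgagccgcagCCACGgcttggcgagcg
XBP1, minus strand, chr22:28800591-28800633: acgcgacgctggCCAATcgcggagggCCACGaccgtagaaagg

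A related element, ERSE-II, was searched as ATTGG, any 1 base and CCACG on both strands and was present in 3 of the 38 genes, against 0.0696% of all genes. The XBP1-type element TGACGTGG was found in 1 of the 38, HYOU1, where it overlaps the ERSE-II match printed here, against 0.927% of all genes.
HYOU1, minus strand, chr11:119057368-119057402: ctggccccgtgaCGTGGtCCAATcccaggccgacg
SDF2L1, plus strand, chr22:21642102-21642136: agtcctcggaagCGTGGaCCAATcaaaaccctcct
HERPUD1, plus strand, chr16:56932013-56932047: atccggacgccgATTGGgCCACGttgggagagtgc

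A composite element bound by ATF4 together with C/EBP proteins was searched as TGATGNAA on both strands, and 4.46% of all genes held it. Of the 4 of 38 genes that held it, 3 had it before the start, and 2 of these are shown because their RNA was lower in every knockout library. HERPUD1, the other of the 3, was above Control in A2ko and A8ko, and CREB3L2, higher in every knockout library, had its match after the start. PSAT1 and PHGDH, which were also lower in every knockout library, held no match, and neither did DDIT3 or TRIB3. A match describes the letters in the window and does not show that a factor binds there. A gene without a match could hold the element outside the window or in other letters, which was not searched.
ASNS, minus strand, chr7:97872457-97872488: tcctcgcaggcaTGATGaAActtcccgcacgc
CHAC1, plus strand, chr15:40953250-40953281: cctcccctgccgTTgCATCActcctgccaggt

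In C9ko, chaperones and disulfide-forming enzymes of the ER rose, while the amino acid synthesis genes ASNS, PSAT1 and PHGDH fell, as did CHAC1 and DDIT3, the gene of CHOP. Of the 41 tested genes, limma called 28 at an adjusted p-value under 0.05, 23 higher and 5 lower. Over all 17100 tested genes the shares called were 22.0% higher and 7.42% lower. The median log2 difference of the 41 genes from the Control mean was 0.32 in C9ko, beside 0.11 for all tested genes, so relative to the latter it was 0.21. The general shift was 0.12 in A2ko and 0.09 in A8ko, and a scaling of the libraries by their median of ratios brought that of C9ko to -0.01. That scaling gave 17 higher and 8 lower among the 41 genes, where 15.3% of all genes were called higher and 12.9% lower, and it moved the share of higher genes among all those called from 74.8% to 54.4%. Mitochondrial transcripts made up 23.1% to 26.9% of the TPM among the Control libraries, against 25.2% for A2ko, 20.7% for A8ko and 20.3% and 17.9% for C9ko. With those transcripts removed and the rest rescaled, the median of the 41 genes in C9ko was 0.224, and beyond that alternative the part of this share in the calls was not tested. Fold changes are on the log2(TPM + 1) scale, on which weakly expressed genes appear to change less than they do. The alternatives cited below for single genes in C9ko include a fit with the identical files counted apart. That fit took copies as replicates and called 8166 genes instead of 5038, so a low adjusted p from it is no support for a call.

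**Figure D1:**
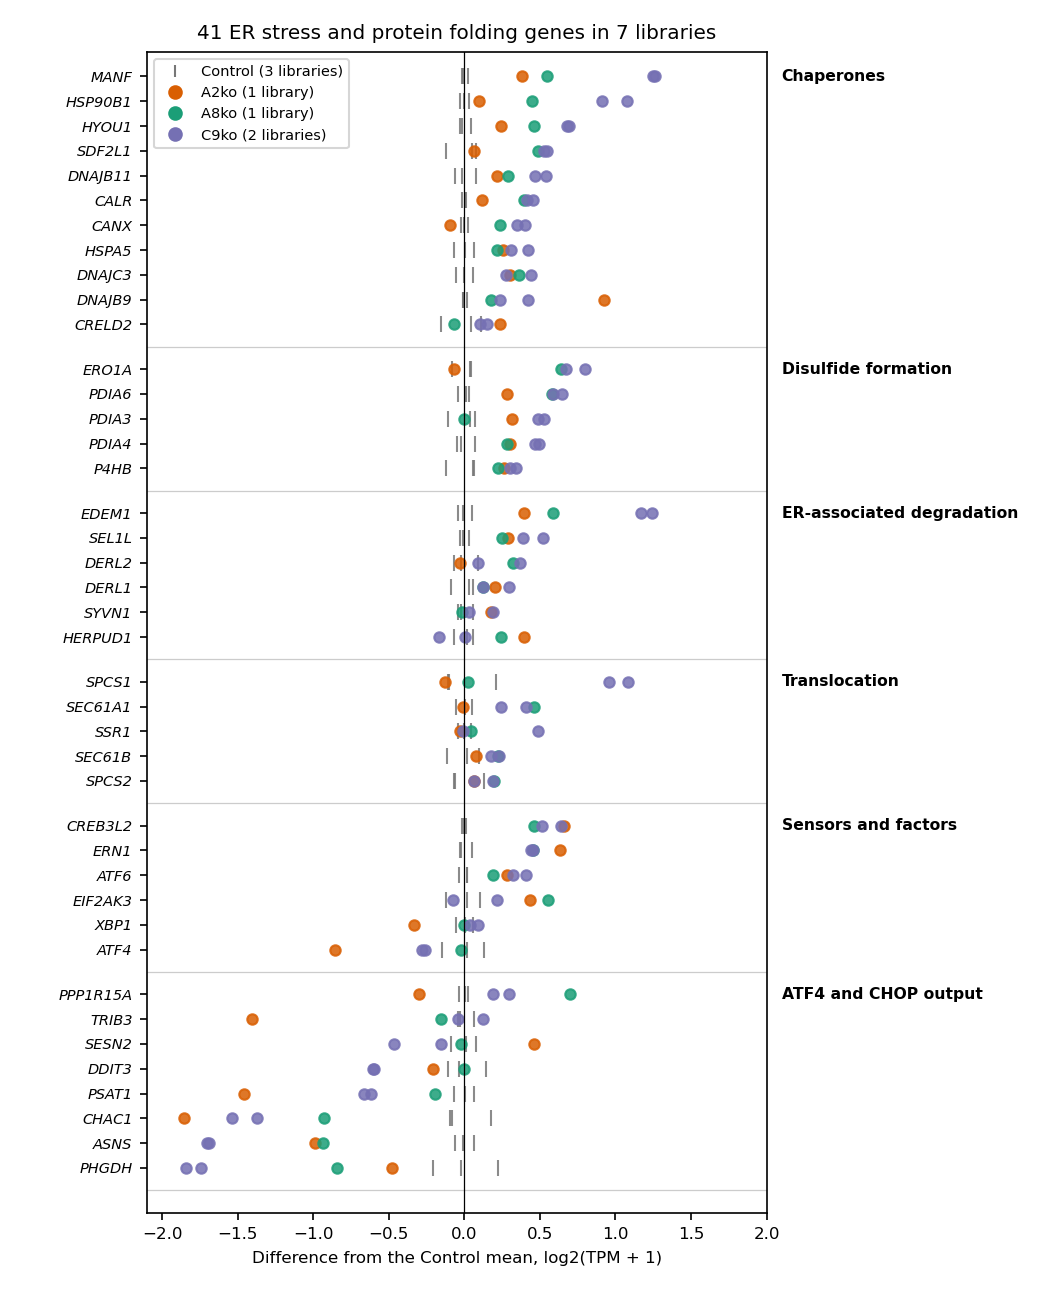
Difference of each of the 41 tested genes from the mean of the 3 Control libraries, on the log2(TPM + 1) scale, with genes in rows by role. Vertical ticks are the Control libraries and circles are the knockout libraries (1 A2ko, 1 A8ko and 2 C9ko). Chaperones lie mostly to the right of Control and PHGDH, ASNS and CHAC1 to its left in all 3 knockouts.

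Of the 11 chaperones and cofactors, 10 were called higher in C9ko and 0 lower, with a median difference of 0.43. Their summed level was 1511 ± 22.0 TPM across Control (SD, n = 3), 1658 in A2ko and 1930 in A8ko, then 2195 and 2321 in C9ko. HSPA5 encodes BiP, the ER chaperone that also holds the stress sensors inactive. Its level was 256, 233 and 246 TPM in the Control libraries, with A2ko at 292, A8ko at 285 and C9ko at 303 and 328. All 4 knockout libraries were above all 3 Control libraries, and the difference in C9ko was 0.36 ± 0.071 (SE, limma adjusted p = 0.00966). Without the second C9ko library it was 0.31 with an adjusted p of 0.0677 by limma, and over all 15 alternatives the adjusted p ranged from 0.000738 to 0.0848, with 12 of them called.

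HSP90B1 encodes GRP94, an ER chaperone of integrins and Toll-like receptors. It was at 309, 302 and 297 TPM among the Control libraries, against 324 for A2ko, 413 for A8ko and 571 and 641 for C9ko. The groups did not overlap, C9ko was highest, and the difference in C9ko was 0.995 ± 0.072 (SE, limma adjusted p = 0.000153). HSP90B1 lies on chromosome 12 (103930107 to 103953645, GRCh38), where the median of the other tested genes within 5 Mb was itself 0.52 in C9ko. Set against those neighbours, its difference was 0.48 (limma adjusted p = 0.00136), and it was called in all 15 alternatives (adjusted p = 3.56e-06 to 0.00749).

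MANF, a secreted ER protein that supports cell survival under stress, had the largest rise of the 11 in C9ko. It was at 35.7, 35.7 and 36.7 TPM across Control, 47.2 in A2ko and 53.1 in A8ko, then 87.2 and 87.7 in C9ko. Every knockout library was above Control, and the C9ko libraries stood far above the rest, at a difference of 1.26 ± 0.057 (SE, limma adjusted p = 2.95e-05). MANF lies on chromosome 3 (51385047 to 51389397), where the neighbours within 5 Mb had a median of 0.87 in C9ko. Relative to them its difference was 0.38 (limma adjusted p = 0.00382), the highest adjusted p of 15 alternatives, in all of which it was called (the lowest was 1.54e-07).

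HYOU1, an ER chaperone that helps BiP exchange nucleotide, was at 24.9, 23.8 and 23.6 TPM in the Control libraries, with A2ko at 28.7, A8ko at 33.5 and C9ko at 39.2 and 39.6. All knockout libraries were higher, with no overlap, and the rise in C9ko was 0.69 ± 0.063 (SE, limma adjusted p = 0.000396). The neighbours of HYOU1 had a median of only 0.12 in C9ko. SDF2L1, a BiP cofactor that shares the ERSE-II letters with HYOU1, was at 32.1, 31.5 and 27.9 TPM among the Control libraries, against 31.9 for A2ko, 43.2 for A8ko and 44.3 and 44.8 for C9ko. A2ko lay within the Control range here, whereas A8ko and C9ko were above it. The rise of SDF2L1 in C9ko was 0.54 ± 0.079 (SE, limma adjusted p = 0.00301).

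The lectin chaperones CALR and CANX, which hold glycoproteins while they fold, rose in C9ko by 0.43 and 0.37. CALR was the most abundant of the 41 genes in Control, at 575 ± 5.46 TPM (SD, n = 3), and read 622 for A2ko, 754 for A8ko and 765 and 787 for C9ko. All knockout libraries of CALR were above Control. CANX was at 182, 179 and 186 TPM across Control, 170 in A2ko and 215 in A8ko, then 232 and 240 in C9ko. CANX was below every Control library in A2ko and above every one in A8ko and C9ko. The BiP cofactor DNAJB11 rose by 0.50 and DNAJC3, which also restrains PERK, by 0.36 in C9ko, and both were above Control in every knockout library. The call for DNAJC3 (limma adjusted p = 0.0178) was kept in 8 of 15 alternatives (adjusted p = 0.00154 to 0.107). It was lost with the median of ratios and without the second C9ko, the second Control or the third Control library.

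DNAJB9, a BiP cofactor that represses IRE1, was highest in A2ko, as was CRELD2. It was at 4.92, 4.81 and 4.81 TPM in the Control libraries, with A2ko at 10.1, A8ko at 5.59 and C9ko at 5.87 and 6.82. A2ko was 0.92 above the Control mean, and every knockout library was above Control. Its rise of 0.33 in C9ko (limma adjusted p = 0.0414) was lost under scaling by the median of ratios (0.21, adjusted p = 0.106 by limma) and when any one of the Control libraries or the second C9ko library was left out (adjusted p = 0.0801 to 0.216 by limma, and 0.00342 to 0.216 over 15 alternatives). CRELD2, a disulfide isomerase-like ER protein that carries the ER stress element, was the only chaperone-group gene not called in C9ko, with a difference of 0.13 ± 0.092 (SE, limma adjusted p = 0.334). Its libraries overlapped between the groups, at 27.2 to 32.9 TPM in Control and 32.7 and 33.9 in C9ko.

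**Figure D2:**
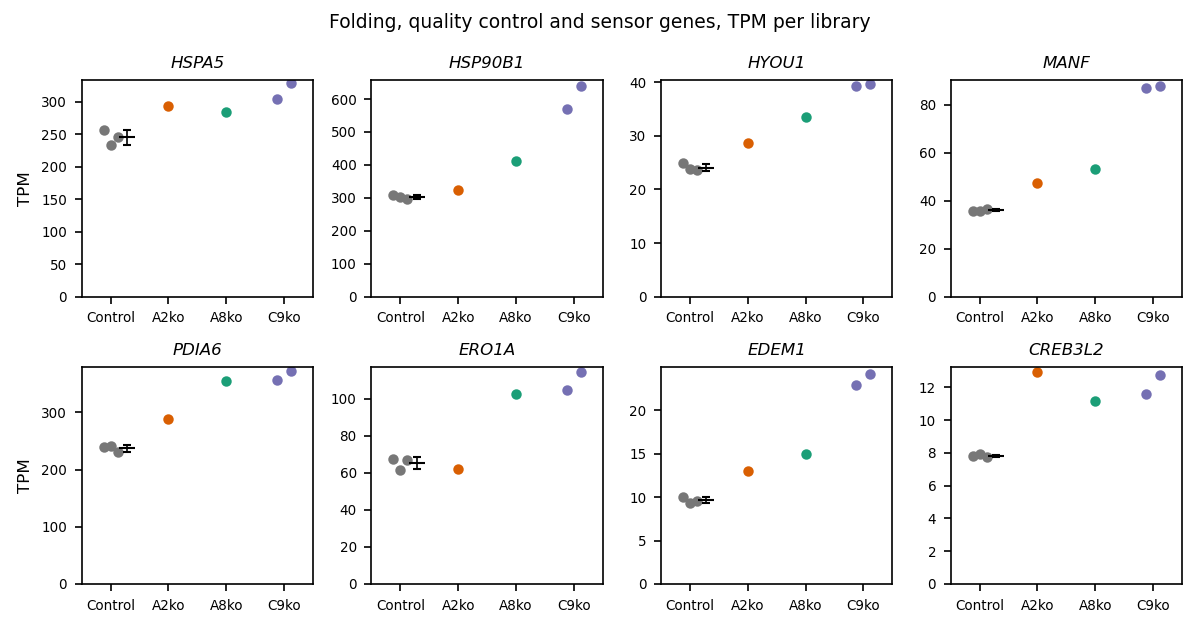
TPM of 8 folding, quality control and sensor genes in each distinct library (linear axes from 0), grouped as Control, A2ko, A8ko and C9ko. Points are libraries and the black bar is the Control mean ± SD (n = 3), so A2ko and A8ko have 1 point each. HSP90B1 and MANF are highest in both C9ko libraries, while HSPA5 shows a smaller step from 233 to 256 TPM in Control to 303 and 328 in C9ko.

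All 5 enzymes of disulfide formation were called higher in C9ko, with a median difference of 0.51 and summed levels of 1378 and 1398 TPM against 991 ± 41.9 in Control (SD, n = 3). ERO1A, the oxidase that recharges protein disulfide isomerases, was at 67.3, 61.5 and 67.0 TPM among the Control libraries, against 62.2 for A2ko, 102 for A8ko and 104 and 114 for C9ko. A2ko lay within Control, and the other knockouts lay well above it. The rise in C9ko was 0.74 ± 0.073 (SE, limma adjusted p = 0.000565), and its neighbours on chromosome 14 had a median of 0.00. PDIA6, an isomerase that binds BiP and carries the ER stress element, was at 240, 242 and 230 TPM across Control, 288 in A2ko and 356 in A8ko, then 356 and 372 in C9ko. The groups did not overlap, and A8ko stood level with the lower C9ko library. C9ko was higher by 0.61 ± 0.061 (SE, limma adjusted p = 0.000564), with neighbours at 0.29.

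PDIA3, which folds glycoproteins with CALR and CANX, was at 223, 201 and 227 TPM in the Control libraries, with A2ko at 270, A8ko at 216 and C9ko at 304 and 312. It was above Control in A2ko and C9ko and within the Control range in A8ko, where its neighbours on chromosome 15 had a median of -0.27. Reads of PDIA3 could be shared with its near copies PDIA3P1 and PDIA3P2, which were at 2.68 to 4.52 and 4.39 to 8.44 TPM. PDIA4 rose by 0.48 and P4HB, the classical protein disulfide isomerase, by 0.32 in C9ko, and both exceeded Control in all knockout libraries. The call for P4HB (limma adjusted p = 0.022) was lost without the first or the second C9ko library (adjusted p = 0.0994 and 0.0787 by limma) and under scaling by the median of ratios (adjusted p = 0.0676 by limma), with a range of 0.00288 to 0.101 over 15 alternatives.

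Of the 6 tested genes of ER-associated degradation, 2 were called higher in C9ko, EDEM1 and SEL1L, and none lower, with a median difference of 0.22. Over all tested genes 22.0% were called higher and 7.42% lower. EDEM1, a lectin that picks misfolded glycoproteins for degradation, was at 10.0, 9.36 and 9.58 TPM among the Control libraries, against 13.0 for A2ko, 15.0 for A8ko and 22.9 and 24.2 for C9ko. The order from Control through A2ko and A8ko to C9ko had no overlap. Its rise in C9ko was 1.21 ± 0.073 (SE, limma adjusted p = 8.21e-05). EDEM1 lies on chromosome 3 (5187646 to 5219957), where the neighbours' median was 0.87, and relative to them the difference was 0.34 (limma adjusted p = 0.0123, the highest of 15 alternatives, the lowest being 7.86e-07). SEL1L, the membrane partner of the ubiquitin ligase HRD1, rose by 0.45 ± 0.070 (SE, limma adjusted p = 0.00366).

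HERPUD1, an ER membrane protein that assists HRD1, was at 27.4, 25.0 and 26.6 TPM across Control, 34.9 in A2ko and 31.4 in A8ko, then 23.4 and 26.4 in C9ko. It was above Control in A2ko and A8ko, whereas C9ko reached below the lowest Control library. In C9ko its difference was -0.08 ± 0.080 (SE, limma adjusted p = 0.488), but relative to its neighbours it was -0.21 and called (limma adjusted p = 0.0337). SYVN1, which encodes HRD1 and shares its locus and strand with the very abundant FAU, and DERL1 and DERL2, channel proteins of the same machinery, were not called, with differences of 0.11, 0.21 and 0.23.

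Among the 5 genes of translocation into the ER, 2 were called higher in C9ko, SPCS1 and SEC61A1, where 22.0% of all tested genes were called higher. SPCS1, a subunit of the signal peptidase, was at 140, 113 and 112 TPM in the Control libraries, with A2ko at 111, A8ko at 123 and C9ko at 236 and 258. A2ko was just below Control, A8ko was inside its range, and C9ko was far above both. The rise in C9ko was 1.02 ± 0.11 (SE, limma adjusted p = 0.000763), but SPCS1 lies on chromosome 3 (52704955 to 52711146) among genes with a median of 0.88. Relative to those neighbours the difference of SPCS1 was 0.14, and the call was lost (limma adjusted p = 0.316). It was kept in the other 14 of 15 alternatives, where the lowest adjusted p was 7.9e-05.

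SEC61A1, the pore of the translocation channel, was at 115, 120 and 125 TPM among the Control libraries, against 119 for A2ko, 166 for A8ko and 142 and 159 for C9ko. A8ko was highest, A2ko was within Control, and the rise in C9ko was 0.32 ± 0.073 (SE, limma adjusted p = 0.0174). That call was lost with the median of ratios (adjusted p = 0.064 by limma), without the second C9ko library (0.108) and without the first Control library (0.0521), in a range of 0.00197 to 0.108 over 15 alternatives. SEC61B, SPCS2 and SSR1 were not called, with differences of 0.20, 0.13 and 0.24. SSR1, a translocon-associated protein, differed between the C9ko libraries themselves, at 57.1 and 40.2 TPM beside 40.5 ± 1.22 in Control (SD, n = 3).

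**Figure D3:**
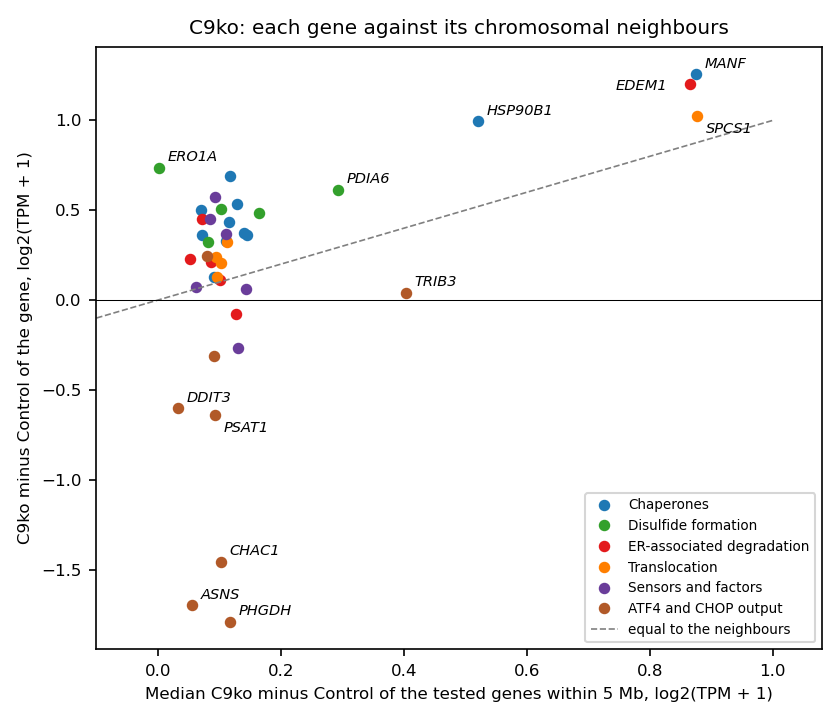
Difference of each of the 41 genes from Control in C9ko (vertical axis) against the median difference of the tested genes within 5 Mb on each side (horizontal axis), both in log2(TPM + 1). Each point is 1 gene, coloured by role, and the dashed line marks a gene equal to its neighbours. MANF, EDEM1 and SPCS1 on chromosome 3 lie at neighbour medians of 0.87 to 0.88, HSP90B1 at 0.52 and TRIB3 at 0.40, and the remaining genes at 0.29 or less.

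Set against the median of its chromosomal neighbours, the count of genes called in C9ko was 27, 18 higher and 9 lower, a comparison chosen after the values of these data had been seen. Among the 15540 tested genes with neighbours, 14.6% were called higher and 12.5% lower in the same way. Calls were lost for DNAJB9, DNAJC3, SEC61A1, SPCS1 and PPP1R15A, and HERPUD1, ATF4, TRIB3 and SESN2 were newly called lower. The median difference of the 41 genes relative to neighbours was 0.21 in C9ko, 0.10 in A8ko and 0.03 in A2ko. The number of gene copies was not measured, so its part in these values was not tested.

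Of the 6 sensors and transcription factors, 3 were called higher in C9ko, the sensors ATF6 and ERN1 and the ER-tethered factor CREB3L2, and none lower. The shares called over all tested genes were 22.0% higher and 7.42% lower. CREB3L2, which is cut like ATF6 and drives secretory genes, was at 7.82, 7.90 and 7.74 TPM across Control, 13.0 in A2ko and 11.1 in A8ko, then 11.6 and 12.7 in C9ko. All knockout libraries were close together and far above Control. Its difference in C9ko was 0.58 ± 0.079 (SE, limma adjusted p = 0.00217). Over all 3 knockouts it was 0.57 ± 0.11 (SE, limma adjusted p = 0.0729), above the threshold.

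ERN1 was at 3.94, 3.67 and 3.70 TPM in Control, the lowest mean of the 41 genes, with A2ko at 6.40, A8ko at 5.53 and C9ko at 5.55 and 5.48. The knockouts were all higher, with no overlap. Its rise in C9ko was 0.45 ± 0.090 (SE, limma adjusted p = 0.0107), and leaving out either C9ko library ended the call (adjusted p = 0.0547 and 0.0513 by limma, and 0.00022 to 0.0674 over 14 alternatives). ATF6 was at 13.5 to 14.0 TPM in the Control libraries, with A2ko at 17.0, A8ko at 15.9 and C9ko at 18.6 and 17.5, again all higher. Its rise in C9ko of 0.37 (limma adjusted p = 0.00896) was not called without the first C9ko library (adjusted p = 0.0583 by limma) or with the median of ratios (adjusted p = 0.053 by limma), in a range of 0.000243 to 0.0674 over 15 alternatives.

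EIF2AK3, which encodes PERK, was at 13.0, 11.0 and 12.2 TPM among the Control libraries, against 16.6 for A2ko, 18.1 for A8ko and 11.4 and 14.1 for C9ko. A2ko and A8ko were above Control, while C9ko straddled its range and was not called (0.07, limma adjusted p = 0.672). XBP1 mRNA, which carries the ER stress element, was at 55.3, 51.1 and 53.3 TPM across Control, 42.1 in A2ko and 53.1 in A8ko, then 54.5 and 56.8 in C9ko. A2ko was the only library below Control, and C9ko differed by 0.06 ± 0.065 (SE, limma adjusted p = 0.491). Gene-level TPM does not separate spliced from unspliced XBP1, nor cut from whole ATF6, so the activity of these sensors was not measured.

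ATF4 was at 498, 408 and 459 TPM in the Control libraries, with A2ko at 250, A8ko at 446 and C9ko at 379 and 374. A2ko was far below Control, A8ko was within it, and both C9ko libraries were below the lowest Control library. The difference in C9ko was -0.27 ± 0.091 (SE, limma adjusted p = 0.0673), and it passed the threshold with the median of ratios (-0.40, limma adjusted p = 0.0106) and without the second Control library (-0.345, limma adjusted p = 0.0242), in a range of 0.0106 to 0.237 over 15 alternatives. ATF4 is controlled mainly at translation, which RNA levels do not show.

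Of the 8 genes of ATF4 and CHOP output, 5 were called lower in C9ko, 1 higher and 2 in neither direction, with a median difference of -0.62, and their summed level was 295 and 306 TPM against 514 ± 28.9 in Control (SD, n = 3). In A2ko the sum was 260 TPM and in A8ko 415, each below the Control range of 481 to 533. In bulk RNA, fewer cells that express a gene and less of its RNA per cell cannot be told apart.

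ASNS, the enzyme that makes asparagine, was at 67.0, 61.4 and 63.7 TPM among the Control libraries, against 31.8 for A2ko, 32.9 for A8ko and 19.0 and 19.1 for C9ko. Every knockout library was far below Control, and the C9ko libraries were lowest. Its fall in C9ko was -1.70 ± 0.066 (SE, limma adjusted p = 1.77e-05), the strongest call of the 41 genes. Over all 3 knockouts the difference was -1.21 ± 0.20 (SE, limma adjusted p = 0.0519). ASNS lies on chromosome 7 (97852118 to 97872542), and its neighbours had medians of 0.06 to 0.14 in the 3 knockouts.

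CHAC1, which degrades glutathione and is a sensitive ATF4 target, was at 10.9, 8.83 and 8.93 TPM across Control, 1.90 in A2ko and 4.53 in A8ko, then 2.62 and 3.06 in C9ko. All knockouts were below Control, A2ko the most. Its fall in C9ko was -1.46 ± 0.12 (SE, limma adjusted p = 0.00028), and over all 3 knockouts the difference was -1.41 ± 0.24 (SE, limma adjusted p = 0.0562). In A8ko, where the difference was -0.93, the neighbours of CHAC1 had a median of -0.27.

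PHGDH and PSAT1 encode successive enzymes of serine synthesis. PHGDH was at 105, 91.9 and 124 TPM in the Control libraries, with A2ko at 75.8, A8ko at 58.9 and C9ko at 28.9 and 31.1. PSAT1 was at 241, 220 and 232 TPM among the Control libraries, against 83.6 for A2ko, 202 for A8ko and 146 and 150 for C9ko. Both genes were below Control in every knockout library, but their order differed, since PHGDH was lowest in C9ko and PSAT1 in A2ko. The fall in C9ko was -1.79 ± 0.12 for PHGDH (SE, limma adjusted p = 0.000127) and -0.64 ± 0.065 for PSAT1 (SE, limma adjusted p = 0.000601).

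DDIT3, which encodes the pro-apoptotic factor CHOP, was at 21.1, 20.0 and 24.1 TPM across Control, 18.6 in A2ko and 21.7 in A8ko, then 13.9 and 14.0 in C9ko. C9ko was clearly lowest, A2ko was just below Control and A8ko was inside it. Its fall in C9ko was -0.60 ± 0.091 (SE, limma adjusted p = 0.0034). TRIB3, a pseudokinase that CHOP and ATF4 induce, was at 48.6, 45.0 and 45.5 TPM in the Control libraries, with A2ko at 16.8, A8ko at 41.6 and C9ko at 45.0 and 50.5. TRIB3 was low in A2ko and overlapped Control in C9ko (0.04, limma adjusted p = 0.716). Its neighbours on chromosome 20 had a median of 0.40 in C9ko, and relative to them it was at -0.36 (limma adjusted p = 0.0056).

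PPP1R15A, which encodes GADD34 and reverses the translation block set by PERK, was the 1 gene of this group called higher in C9ko. It was at 30.8, 29.6 and 30.4 TPM among the Control libraries, against 24.4 for A2ko, 49.6 for A8ko and 37.4 and 34.7 for C9ko. A8ko was highest, A2ko was below Control, and the C9ko libraries were between A8ko and Control. Its rise in C9ko of 0.24 ± 0.066 (SE, limma adjusted p = 0.033) was lost when any 1 of the 5 libraries was left out (adjusted p = 0.0591 to 0.169 by limma) and under the median of ratios (0.12, limma adjusted p = 0.235), and its lowest adjusted p over 15 alternatives was 0.00221. SESN2, a sensor of leucine, was at 4.19 to 4.81 TPM across Control, 6.57 in A2ko and 4.42 in A8ko, then 2.99 and 3.94 in C9ko. It was above Control in A2ko and below it in C9ko (-0.31, limma adjusted p = 0.107).

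**Figure D4:**
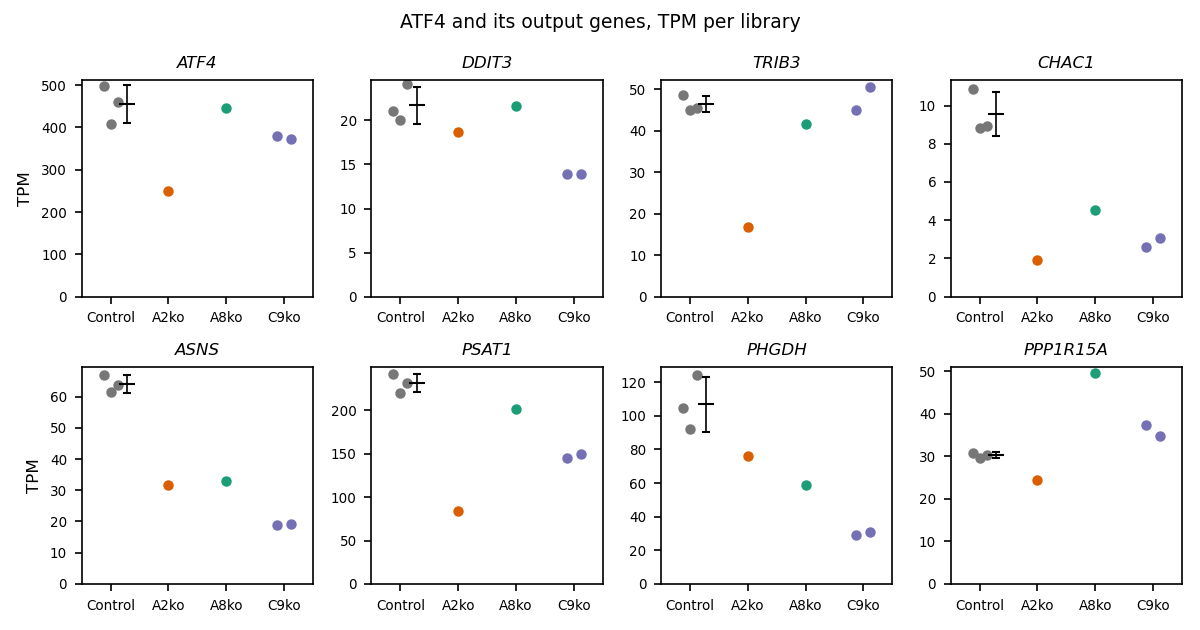
TPM of ATF4 and 7 of its output genes in each distinct library (linear axes from 0), with libraries as points and the Control mean ± SD (n = 3) as a black bar. ASNS and PHGDH are lowest in C9ko and CHAC1 and ATF4 in A2ko, where ATF4 is at 250 TPM against 408 to 498 in Control.

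A2ko and A8ko were described by distance alone, counting genes that lay outside the Control range and differed from its mean by 1 log2 unit or more. In A2ko, 3 of the 41 genes were this far below, TRIB3, CHAC1 and PSAT1, and 0 above, where 1.53% of all tested genes were below and 3.54% above. At 0.5 log2 units, 5 were below, with ATF4 and ASNS added, and 3 above, DNAJB9, ERN1 and CREB3L2. The shares of all tested genes at that distance were 6.26% below and 16.6% above. The median difference of the 41 genes in A2ko was 0.18 beside 0.12 for all tested genes, and under the median of ratios it was 0.05. The 8 ATF4 and CHOP output genes had a median of -0.73 in A2ko and the 11 chaperones one of 0.23.

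In A8ko, 0 of the 41 genes were 1 log2 unit or more from Control in either direction, where 2.05% of all tested genes were above and 2.68% below. At 0.5 log2 units, 6 were above, MANF, PDIA6, ERO1A, EDEM1, EIF2AK3 and PPP1R15A, and 3 below, CHAC1, ASNS and PHGDH. Over all tested genes 10.4% were above and 8.47% below at that distance. The median difference in A8ko was 0.23 beside 0.09 for all tested genes, at 0.36 for the chaperones and -0.17 for the ATF4 and CHOP output. Under the median of ratios 5 genes were past 0.5 log2 units, 2 above and 3 below. The share of all tested genes past that distance was not counted under this scaling.

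Across the 3 knockouts, every knockout library was above every Control library for 17 of the 41 genes and below for 4, and the remaining 20 overlapped. For all tested genes these shares were 17.0% above and 4.61% below. The 17 comprise 8 of the 11 chaperones, 3 of the 5 disulfide enzymes, 3 degradation genes and the 3 factors ATF6, ERN1 and CREB3L2. The 4 are ASNS, CHAC1, PSAT1 and PHGDH. The 3 comparisons share their Control libraries, so movement in the same direction is not independent between them.

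With each knockout group as 1 value against the 3 Control libraries, limma called 0 of the 41 genes, and 20 were at an unadjusted p under 0.05. Over all tested genes 1.03% were called and 16.0% were at an unadjusted p under 0.05. The 176 genes called among all tested were 5 to 11 when 1 Control library was left out and 23 when no filter was applied. The median difference of the 41 genes was 0.27 beside 0.11 for all tested genes. Without A2ko, 17 of the 41 were called, 14 higher and 3 lower, and the lower ones were CHAC1, ASNS and PHGDH. The shares of all tested genes called without A2ko were 8.08% higher and 3.57% lower. When the 3 knockouts were averaged within the fit of all 4 groups, whose error is the spread between like libraries and not between knockouts, 30 were called, where 19.5% of all tested genes were called higher and 5.95% lower.

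Another 9 lists of the same pathway and its surroundings were read in the same fit. For C9ko, 22.0% of all tested genes were called higher and 7.42% lower. Of 24 other ER folding genes, 17 were called higher in C9ko and 0 lower, with a median of 0.33. QSOX1, an oxidase that forms disulfides along the secretory route, was at 18.2 ± 0.676 TPM in the Control libraries (SD, n = 3), with A2ko at 28.5, A8ko at 29.1 and C9ko at 33.9 and 43.2. Its rise in C9ko was 1.03 ± 0.11 (SE, limma adjusted p = 0.000668), and DNAJC1, a membrane cofactor of BiP, rose by 0.63. The call for DNAJC1 was lost without the second C9ko, the first Control or the second Control library (adjusted p = 0.105, 0.0557 and 0.0664 by limma). Of 17 genes of COPII transport and retrieval, 9 were called higher and 0 lower. MCFD2, a cargo receptor subunit, was at 48.0 ± 0.80 TPM among the Control libraries (SD, n = 3), against 71.3 for A2ko, 69.1 for A8ko and 71.1 and 80.1 for C9ko, and was called over all 3 knockouts too (0.57 ± 0.081 SE, limma adjusted p = 0.033). That call over all 3 knockouts was lost for MCFD2 without any 1 Control library (adjusted p = 0.206 to 0.243 by limma) and held in 6 of 13 alternatives (adjusted p = 0.00119 to 0.243).

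Of 19 other degradation genes 7 were called higher and 0 lower, and of 25 other translocation and glycosylation genes 7 higher and 0 lower. The shares of all tested genes were 22.0% higher and 7.42% lower. TRAM1, a translocon protein counted with the former list, rose by 0.59 and RPN2, a subunit of the oligosaccharyltransferase, by 0.56. STT3B, its catalytic subunit, rose by 1.29, SELENOK by 0.79 and the COPII coat gene SEC13 by 0.97, and all 3 lie on chromosome 3 among neighbours with medians of 0.85 to 0.89. Relative to those neighbours STT3B was at 0.40 (limma adjusted p = 0.00258), SELENOK at -0.09 (adjusted p = 0.366 by limma) and SEC13 at 0.12 (adjusted p = 0.122 by limma). Of 12 tested further regulators 4 were called higher, among them CREB3 (0.70) and the protease MBTPS1 (0.31) that cuts ATF6. CREB3 lies on chromosome 9 among neighbours with a median of 0.50, and relative to them it was at 0.20 (limma adjusted p = 0.0339). The ER membrane protein WFS1 fell by 0.42. Without the second C9ko library WFS1 was no longer called (adjusted p = 0.0514 by limma), nor was MBTPS1 without the first or the second (adjusted p = 0.0635 and 0.0621 by limma).

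Of 28 other ATF4 targets, 11 were called lower and 6 higher in C9ko, with a median of -0.18. Among all tested genes 7.42% were called lower and 22.0% higher. The cystine transporter SLC7A11 was at 5.82 ± 0.18 TPM across Control (SD, n = 3), 1.90 in A2ko and 4.25 in A8ko, then 2.64 and 2.66 in C9ko, a fall in C9ko of -0.90 ± 0.095 (SE, limma adjusted p = 0.000725). PCK2, a mitochondrial enzyme of gluconeogenesis, was at 24.8 ± 1.01 TPM in the Control libraries (SD, n = 3), with A2ko at 22.7, A8ko at 12.2 and C9ko at 10.8 and 13.3, with a fall of -0.99 in C9ko. Of the whole list, 2 genes were called over all 3 knockouts, both lower. These were SLC6A9, a glycine transporter, at -0.64 ± 0.098 (SE, limma adjusted p = 0.0422) and CTH, which makes cysteine, at -0.90 ± 0.11 (SE, limma adjusted p = 0.026). Without any 1 Control library both calls were lost, at adjusted p-values of 0.213 to 0.26 for SLC6A9 and 0.17 to 0.192 for CTH by limma, and of 13 alternatives 7 and 8 kept them (adjusted p = 0.00135 to 0.26 and 0.00265 to 0.192). The list did not move as one, since the transcription factor CEBPB rose in C9ko by 0.86 and the lipoprotein receptor VLDLR by 0.94. The neighbours of VLDLR on chromosome 9 had a median of 0.59, and relative to them it was at 0.35 (limma adjusted p = 0.0489).

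Of 19 genes of the tRNA synthetase list, 3 were called in each direction in C9ko, where 22.0% of all tested genes were called higher and 7.42% lower. AARS1 fell by 0.48 and LARS1 by 0.33, while HARS1 rose by 0.31, and neither LARS1 nor HARS1 was called without the second C9ko library (adjusted p = 0.0847 and 0.0567 by limma). QARS1 rose by 0.63 but lies on chromosome 3, and relative to its neighbours its direction turned to -0.24 (limma adjusted p = 0.0334). Of 17 cytosolic heat shock genes 1 was called higher, DNAJA1 (0.72), and 2 lower, HSPB1 (-0.58) and DNAJB1 (-0.46). DNAJA1 lies on chromosome 9 among neighbours with a median of 0.50, and relative to them it was at 0.22 (limma adjusted p = 0.0183). DNAJB1 was not called without the first C9ko library (adjusted p = 0.0553 by limma). Of 9 mitochondrial chaperones limma called 0 in C9ko, with 2 at an unadjusted p under 0.05. The median of the cytosolic heat shock list was 0.10 in C9ko, 0.15 in A8ko and -0.44 in A2ko, and that of the mitochondrial chaperones 0.08, 0.02 and -0.18.

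**Figure D5:**
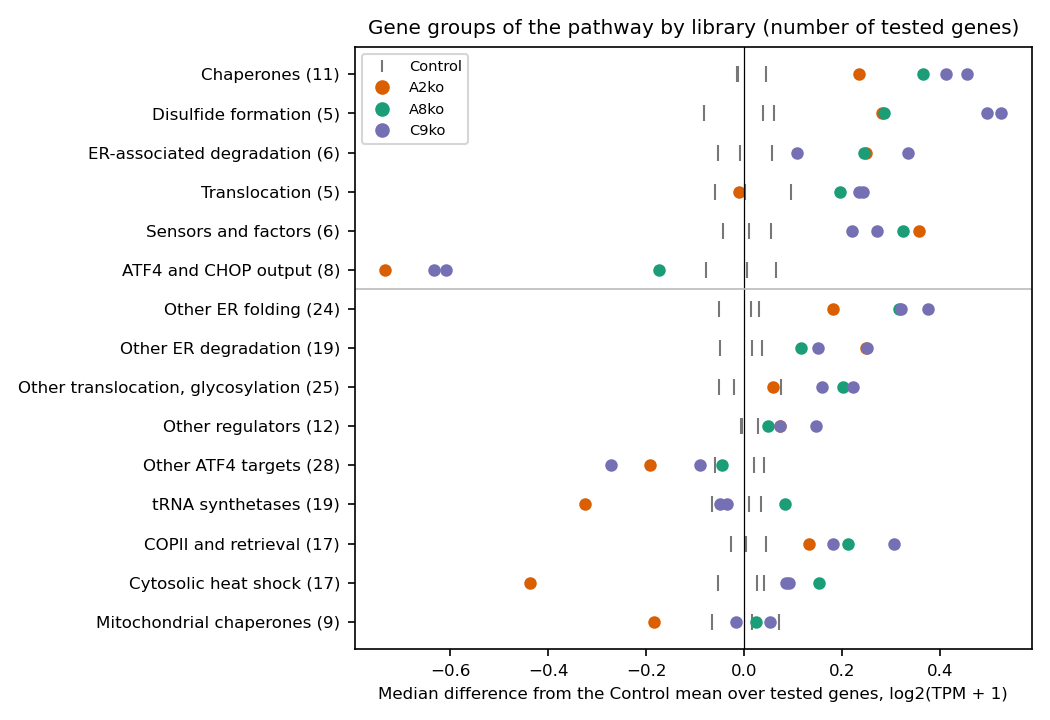
Median difference from the Control mean over the tested genes of each list, in log2(TPM + 1), in each distinct library. Circles are knockout libraries and ticks are Control libraries, with the number of tested genes beside each list. The ATF4 and CHOP output lies at -0.73 in A2ko and at -0.63 and -0.61 in C9ko, and the disulfide enzymes lie highest in C9ko, at 0.495 and 0.524.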

How the data were processed

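RNA of 9 CAL27 samples was sequenced, and the authors deposited TPM per gene. The submitters' processing notes name hg38 as the genome build. The aligner, the counting tool, its use of strand and the annotation are not given in the sources used here. The depth of each library is unknown, so no counting intervals are given. Of the 42 genes, 24 overlap an annotated gene on the other strand and 12 one on the same strand, and their reads could be shared.

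Symbols were matched by Ensembl identifier, and positions came from GENCODE release 29 (GRCh38). Genes with at least 1 TPM in at least 2 distinct libraries were analysed as log2(TPM + 1). C9ko was tested with limma 3.58.1 in R 4.3.3 (all 4 groups, eBayes with trend, Benjamini-Hochberg adjustment over 17100 genes, threshold 0.05). A further fit used 3 knockout group means against 3 Control libraries. The fits were also run on simulated data, where the distance of 0.5 log2 units in 1 library passed many unchanged genes. That outcome is not used as support for any call. Alternatives were other scalings, filters, pseudocounts and fits, neighbours within 5 Mb, and libraries left out. For C9ko they include a fit with the identical files counted apart, in which copies act as replicates.

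The 42 genes and the further lists were chosen with earlier results of these data known, so no set test was made. All 42 genes are accounted for. Values per library are given for most called genes or those past 0.5 log2 units (up to 5 per role and comparison) and for HSPA5, DDIT3, ATF4 and XBP1. The called genes PDIA4, P4HB, SEL1L, DNAJB11 and DNAJC3 are given without TPM values. From the other lists the 2 largest called rises and falls with at least 5 TPM were named. Genes of those lists called over all 3 knockouts (SLC6A9, CTH) were named after their values were seen.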

Additional observations from a re-analysis of the deposited data

Results flagged for a closer look

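For 4 of the 42 genes the knockouts lay on opposite sides of every Control library, and the difference between the knockouts was not tested. How many of all tested genes did so was not counted, so the 4 cannot be set against that share. In A2ko alone, 8621 of the 17100 tested genes lay above the Control range and 4500 below it. CANX was above Control in A8ko and C9ko and below it in A2ko, with 0.471 log2 units between the farthest groups. SPCS1 was above in C9ko, where its neighbours had a median of 0.88, and below in A2ko, with 1.15 log2 units between them. In A2ko it was only just below, at 111 TPM against 112 in the lowest Control library. SESN2 was above in A2ko and below in C9ko, a difference of 0.77. PPP1R15A was above in A8ko and C9ko and below in A2ko, a difference of 0.995.

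The medians of 2 further lists also fell on opposite sides of all Control libraries, again with no test of the difference. The median of the tRNA synthetase list was above Control in A8ko and below it in A2ko, 0.41 log2 units apart. The median of the cytosolic heat shock list was above in A8ko and C9ko and below in A2ko, 0.59 log2 units apart.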

How the results depend on the processing

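Of the 41 genes, those called in C9ko kept their direction under the alternatives run, and of the other listed genes called there 3 did not, SELENOK (-0.087), CRELD1 (-0.17) and QARS1 (-0.238), each relative to its neighbours. For C9ko, 5038 genes were called, against 8166 when the identical files were counted apart, 3248 with the replicate number as a block and 3301 to 4174 with 1 library left out. Of the 41 genes, 28 were called, against 18 with the block (13 higher, 5 lower) and 22 to 26 with 1 library left out. With the block, 2420 of all 17100 tested genes were called higher and 828 lower. The block ended the calls of HSPA5, CALR, CANX, DNAJB9, DNAJC3, P4HB, SEC61A1, ATF6, ERN1 and PPP1R15A. Testing with no filter ended those of HSPA5, DNAJB9, DNAJC3, P4HB, SEC61A1 and PPP1R15A. Same-numbered libraries of Control and C9ko deviated from their group means with correlations of -0.0529 and -0.0124 across genes. With 2 C9ko libraries these deviations mirror each other, so the values cannot show if samples were handled in pairs. The labels leave that unsaid. The share of higher genes among all those called in C9ko was 74.8%, against 60.4% without mitochondrial transcripts and 53.8% relative to neighbours. The cause of these changes was not tested.

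The median of the 41 genes in C9ko, 0.32, was 0.192 with the median of ratios, 0.206 relative to neighbours, 0.224 without mitochondrial transcripts and 0.30 to 0.37 with 1 library left out. Over all 3 knockouts, 176 genes were called, against 4361 averaged within the fit of 4 groups, 23 with no filter, 1993 without A2ko, 67 without C9ko and 5 to 11 without 1 Control library. Of the 41 genes 0 were called, against 30 averaged within that fit, 17 without A2ko, 0 without any 1 Control library, and 1 with the median of ratios or relative to neighbours or without C9ko (ASNS), and without A8ko or mitochondrial transcripts (CHAC1). Their median of 0.27 was 0.15 with the median of ratios, 0.134 relative to neighbours and 0.22 to 0.28 with 1 library left out.

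In A2ko, 867 genes were past 1 log2 unit, against 380 with a mean of at least 5 TPM, 1813 with a pseudocount of 0.1 and 893 to 909 without 1 Control library. Of the 41 genes 3 were past it, against 5 with that pseudocount (DNAJB9 and ASNS added) and 3 to 4 without 1 Control library, and 8 to 9 were past 0.5 log2 units. Their median of 0.18 was 0.114, 0.0479 and 0.0347 with that minimum, the median of ratios and neighbours, and 0.16 to 0.21 without 1 Control library. In A8ko, 809 genes were past 1 log2 unit, against 412, 1689 and 843 to 870 in the same order. Of the 41 genes 0 were past it, against 2 with the median of ratios or without mitochondrial transcripts (CHAC1, ASNS) and 1 with the pseudocount (CHAC1). Past 0.5 log2 units there were 9, against 5 with the median of ratios or relative to neighbours and 9 to 10 without 1 Control library. The median of 0.23 was 0.124, 0.10 and 0.153 with the median of ratios, neighbours and no mitochondrial transcripts, and 0.20 to 0.26 without 1 Control library.

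Of the values for single genes, 939 kept their side of the threshold or their level, 90 were no longer past the threshold, 8 newly passed it, 44 moved and 2 turned. With 1 library in A2ko and A8ko and 2 in C9ko, differences within the spread between libraries were not detectable.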
